A study of Mus musculus with 8 samples.

Results

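The genes described here encode heat shock proteins and their helpers: *Hspa1a*, *Hspa1b*, *Hspb1*, *Dnajb1*, *Hsph1*, *Bag3*, *Hspa8*, *Hsp90aa1*, *Hspd1* and *Hspe1*. They are 10 of the 49585 genes listed in the read counts of the alignment to the C57BL/6J genome and were taken by gene symbol. All 10 were among the 23113 genes that were counted often enough to be tested. The counts describe the whole-brain RNA of female F1 mice at postnatal day 1, whose mother was C57BL/6J (B) and whose father was CAST/EiJ (C), a cross written B × C. The dams drank water with 0 ppm Cd (controls) or 50 ppm Cd, given as CdCl2, before mating and throughout pregnancy. Brains are called exposed here when the dam drank 50 ppm Cd. The study states that Cd accumulates in the placenta and passes inefficiently to the fetus. There were 4 pups per dose, and no litter gave more than 1 of them. Libraries were made from poly(A) RNA with a strand-specific kit and read as single-end reads of 125 bases, and the strand setting of the counting is not given in the sources used here.

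Heat shock proteins hold unfolded proteins, help them to fold and pass on those that cannot be rescued. A basal set is transcribed in every cell, and a second set is switched on by heat shock factor 1 when unfolded proteins accumulate, as happens after heat, oxidants or thiol-binding metals such as Cd. In the developing brain the basal set is abundant, since growing neurons fold large amounts of cytoskeletal and synaptic protein.

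Total counts per library ranged from 22916434 in 50 ppm replicate 4 to 30708087 in 0 ppm replicate 3. Levels are given as CPM, read counts relative to the library size after TMM normalization, and 3 counts, the most that a count of 0 allows, correspond to 0.0980 to 0.132 CPM, a limit that covers counting error only. The labelled tissue was checked with neuronal markers. Of these, *Dcx*, a microtubule protein of migrating neurons, lay between 1736 and 2126.5 CPM, whereas *Tubb3*, another neuronal marker, was listed at 0 in all 8 libraries. The listed 0 of *Tubb3* was not examined further.

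No difference with maternal Cd exposure passed the test for any of the 10 genes. By the quasi-likelihood test of edgeR, with Benjamini-Hochberg adjusted p-values for the 23113 genes, 0 of the 10 genes had an adjusted p under 0.05, and each had an adjusted p of 0.999. Over all genes tested, 4 genes passed, a share of 0.0173%. At an unadjusted p under 0.05 the count was 0 of the 10 genes and 866 of all genes (3.75%), and DESeq2 and limma-voom likewise gave 0 of the 10 genes at either threshold. The log2 fold change was positive for 6 of the genes and negative for 4, with a median of 0.02, where 49.0% of all genes tested were positive and their median was -0.0033. For none of the 10 genes did the brains of one dose all lie above those of the other, which was the case for 2.09% of all genes. These results are for whole tissue, in which fewer cells of a type and less RNA per cell cannot be told apart.

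**Figure D1:**
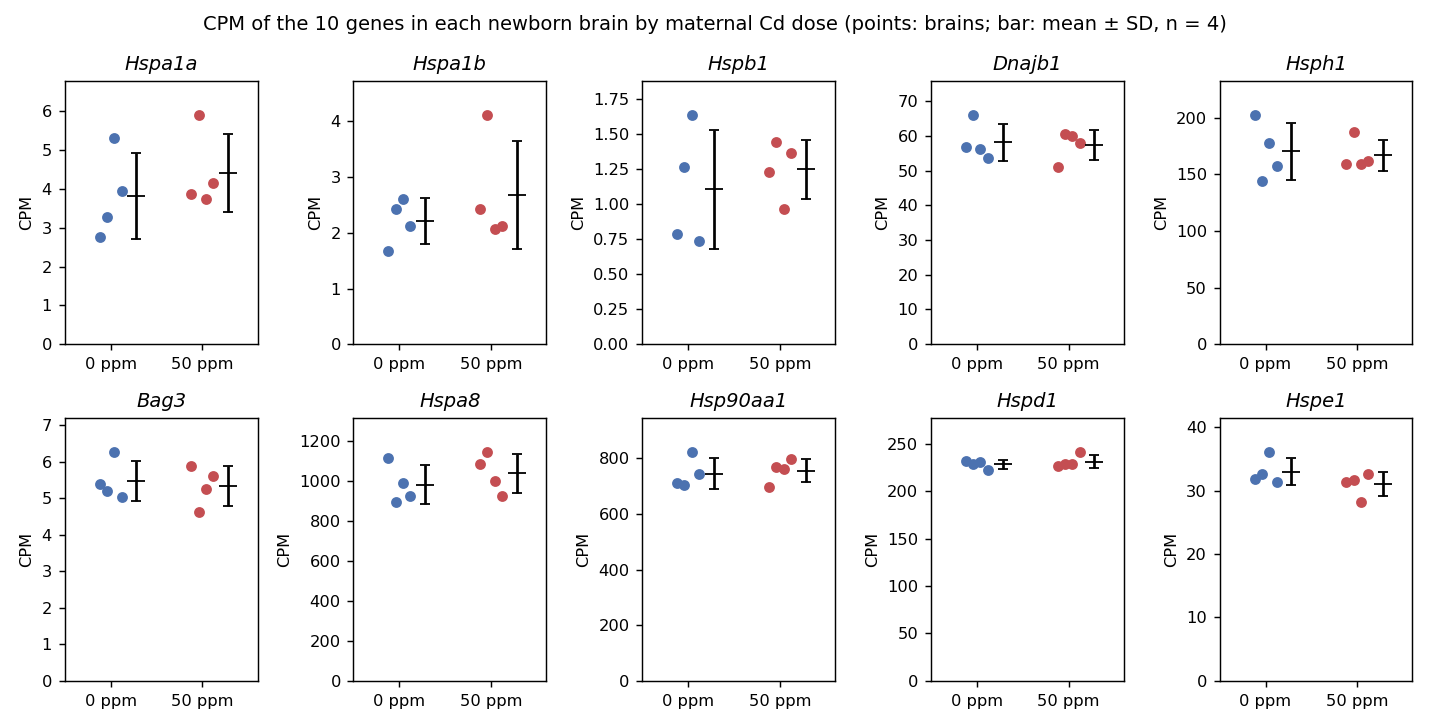
CPM of each gene in each newborn brain (points) at 0 ppm and 50 ppm maternal Cd, with mean ± SD (bars, n = 4). The doses overlap for all 10 genes, from *Hspb1* at 0.736 to 1.63 CPM to *Hspa8* at 896.5 to 1146 CPM.

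The stress-inducible Hsp70 genes, *Hspa1a* and *Hspa1b*, were transcribed at a low level at both doses. They lie next to each other on chromosome 17 of GRCm38 on the minus strand, *Hspa1a* (ENSMUSG00000091971) from 34969190 to 34972156 and *Hspa1b* (ENSMUSG00000090877) from 34956436 to 34959238, and encode nearly the same protein, an ATP-driven chaperone that binds exposed hydrophobic stretches. Over 1923 aligned coding bases the pair differed at 8 and matched at 99.6%, with a longest identical run of 638 bases. The 250 bases upstream of each start differed at 3 positions. These upstream sequences (RefSeq starts, GRCm38) are shown because heat shock factor 1 acts through such regions, and because they show how alike the regions of these genes are. The *Hspa1a* window is chr17:34972157-34972406 and the *Hspa1b* window chr17:34959239-34959488, both on the minus strand. The window of *Hspb1*, the gene described after them, is chr5:135887669-135887918 on the plus strand, and it is shown as the region of an unrelated inducible gene. None of the 3 windows overlaps an annotated exon. Capitals mark matches to GAANNTTC, the pair of facing GAA units that is part of the heat shock element and reads the same on both strands.
Hspa1a: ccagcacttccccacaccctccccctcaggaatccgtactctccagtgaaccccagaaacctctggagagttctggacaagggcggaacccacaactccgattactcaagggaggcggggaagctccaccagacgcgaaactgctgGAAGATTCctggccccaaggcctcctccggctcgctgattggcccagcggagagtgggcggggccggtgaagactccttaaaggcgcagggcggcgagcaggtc
Hspa1b: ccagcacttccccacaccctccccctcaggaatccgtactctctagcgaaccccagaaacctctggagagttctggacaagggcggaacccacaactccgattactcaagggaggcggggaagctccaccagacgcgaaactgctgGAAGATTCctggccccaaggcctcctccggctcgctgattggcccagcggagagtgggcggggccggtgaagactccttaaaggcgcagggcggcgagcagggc
Hspb1: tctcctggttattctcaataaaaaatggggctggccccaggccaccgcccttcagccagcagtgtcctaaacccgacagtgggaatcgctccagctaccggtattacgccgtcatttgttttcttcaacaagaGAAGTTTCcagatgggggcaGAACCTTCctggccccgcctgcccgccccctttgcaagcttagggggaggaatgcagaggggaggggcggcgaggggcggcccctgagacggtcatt

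The match in *Hspa1a* and in *Hspa1b* begins 104 bases before the start, and those in *Hspb1* begin 117 and 97 bases before it. RefSeq upstream sequences were matched for 8 of the 10 genes (11 starts), and none was matched for *Hspa8* and *Hsp90aa1*. Of these 8 genes, 6 held GAANNTTC or TTCNNGAA, the pair in its tail-to-tail order, within 250 bases of at least 1 start, compared with 12.8% of 32851 mouse promoters of the same length (6.69% for GAANNTTC and 7.17% for TTCNNGAA). The genes were counted over all their starts, whereas the promoters were counted singly. The 6 genes are also not separate cases, since the windows of *Hspa1a* and *Hspa1b* are nearly identical and *Hspd1* and *Hspe1* share their matches. *Hsph1* held TTCNNGAA 54 or 33 bases before its 2 starts. The window of *Hspe1* held 2 triplets, in which a TTCNNGAA and a GAANNTTC share a unit, beginning 89 and 84 bases before the start of *Hspe1*, and the same bases lie within the annotated span of *Hspd1*, upstream of 1 of its 2 RefSeq starts and not in the window of the other. A triplet of either order was present in 0.466% of promoters. No match was found in the windows of *Dnajb1* and *Bag3*. A match describes the letters of the sequence and does not show that a factor binds there. Only exact matches within 250 bases of these starts were sought, so the lack of a match does not show that an element is absent.

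Because many of their reads can be placed on either gene, the counts of *Hspa1a* and *Hspa1b* were also summed. The summed level was 4.44, 5.69, 7.94 and 6.08 CPM in the brains of the controls and 6.28, 10.01, 5.82 and 6.26 CPM at 50 ppm maternal Cd. The doses overlapped, with the lowest value in 0 ppm replicate 1, the highest in 50 ppm replicate 2, and the other 3 exposed brains within the range of the controls. The means were 6.04 ± 1.45 CPM at 0 ppm and 7.09 ± 1.96 CPM at 50 ppm (SD, n = 4), and the log2 fold change was 0.23 (standard error 0.19, 95% interval -0.17 to 0.64), with p = 0.343 in an exact permutation test (two-sided, all 70 labellings). The interval spans 0.887-fold to 1.56-fold. The difference rested on 50 ppm replicate 2, without which the log2 fold change was 0.018, and without 0 ppm replicate 3, the highest control, it was 0.40. Without 0 ppm replicate 1 it was 0.11.

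Taken apart, *Hspa1a* was counted at 2.77, 3.27, 5.32 and 3.95 CPM at 0 ppm and at 3.86, 5.90, 3.75 and 4.15 CPM at 50 ppm. *Hspa1b* was counted at 1.67, 2.42, 2.61 and 2.13 CPM at 0 ppm and at 2.42, 4.11, 2.07 and 2.12 CPM at 50 ppm. The same brain, 50 ppm replicate 2, was highest for both genes, and the same brain, 0 ppm replicate 1, was lowest for both. The log2 fold changes were 0.20 for *Hspa1a* (standard error 0.21, 95% interval -0.23 to 0.64) and 0.28 for *Hspa1b* (standard error 0.24, 95% interval -0.21 to 0.78). Without 50 ppm replicate 2 they were 0.030 and -0.0026, so that the direction of *Hspa1b* depended on that brain. Leaving out 0 ppm replicate 1 gave 0.074 and 0.17, and leaving out 0 ppm replicate 3 gave 0.41 and 0.38. Between 57.5% and 67.1% of the summed counts of a brain were assigned to *Hspa1a*. Across the 8 brains the log2 CPM of both genes was correlated (r = 0.834, exact permutation p = 0.0088, adjusted p = 0.0176 over 2 relations; rho = 0.714, exact permutation p = 0.0576, adjusted p = 0.115). Without 50 ppm replicate 2 and 0 ppm replicate 1 the r was 0.389. These are the highest and the lowest brain for both genes, so leaving them out also narrows the range. The lower r therefore does not decide whether the relation holds among the other brains. The part of reads that can be placed on either gene in this correlation was not tested.

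*Hspb1* (ENSMUSG00000004951, chromosome 5, 135887919 to 135889563) encodes a small heat shock protein that holds unfolding proteins without ATP and binds actin and intermediate filaments. It was counted at 0.785, 1.26, 1.63 and 0.736 CPM at 0 ppm and at 1.23, 1.44, 0.963 and 1.37 CPM at 50 ppm. The controls spread more widely than the exposed brains, which all lay inside the range of the controls. This corresponds to 19 to 50 reads per brain, and the log2 fold change was 0.17 (standard error 0.28, 95% interval -0.42 to 0.76), the widest interval among the 10 genes. Single brains of both doses moved it, to 0.43 without 0 ppm replicate 3, to 0.031 without 0 ppm replicate 1, to 0.021 without 0 ppm replicate 4, to 0.090 without 50 ppm replicate 2 and to 0.28 without 50 ppm replicate 3, and limma-voom with quality weights gave 0.34.

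*Dnajb1*, *Hsph1* and *Bag3* encode partners that drive the Hsp70 cycle. The Hsp40 protein of *Dnajb1* (ENSMUSG00000005483, chromosome 8, 83608193 to 83612653) brings substrates to Hsp70 and stimulates its ATPase, and *Hsph1* (ENSMUSG00000029657, chromosome 5, 149614287 to 149636376) encodes Hsp110, a nucleotide exchange factor that also takes part in resolving aggregates. *Hsph1* was counted at 202, 144, 178 and 158 CPM in the controls and at 159, 187, 159 and 162 CPM in the exposed brains. The highest brain was 0 ppm replicate 1 and the lowest 0 ppm replicate 2, and 3 of the exposed brains lay close together with 50 ppm replicate 2 above them. The means were 170.4 ± 25.2 and 167 ± 13.6 CPM (SD, n = 4), and the log2 fold change was -0.03 (standard error 0.09, 95% interval -0.23 to 0.16). Without 0 ppm replicate 1 the direction turned, with a log2 fold change of 0.06.

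*Dnajb1* was counted at 56.9, 65.9, 56.3 and 53.6 CPM at 0 ppm and at 51.1, 60.5, 60.0 and 57.9 CPM at 50 ppm. The doses overlapped between 53.6 and 60.5 CPM, with 0 ppm replicate 2 above this stretch and 50 ppm replicate 1 below it. The log2 fold change was -0.02 (standard error 0.08, 95% interval -0.19 to 0.15). It became positive without 0 ppm replicate 2 (0.045), without 50 ppm replicate 1 (0.035) and with limma-voom (0.017). *Bag3* (ENSMUSG00000030847, chromosome 7, 128523616 to 128546981) encodes a cochaperone that exchanges the nucleotide of Hsp70 and directs its clients to autophagy. It was counted at 5.39, 5.21, 6.27 and 5.03 CPM in the controls and at 5.89, 4.63, 5.25 and 5.602 CPM in the exposed brains. The highest value was in 0 ppm replicate 3 and the lowest in 50 ppm replicate 2, and the remaining brains of both doses were mixed. The log2 fold change of *Bag3* was -0.04 (standard error 0.14, 95% interval -0.34 to 0.27), and it was 0.035 without 0 ppm replicate 3 and 0.026 without 50 ppm replicate 2.

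The cytosolic chaperone genes *Hspa8* and *Hsp90aa1* were the most abundant of the 10 genes. *Hspa8* (ENSMUSG00000015656, chromosome 9, 40800984 to 40810087) encodes Hsc70, the constitutive Hsp70, which also strips clathrin from vesicles. It was counted at 1116, 896.5, 992 and 925 CPM at 0 ppm and at 1086, 1146, 1002 and 925 CPM at 50 ppm. The highest brains were 0 ppm replicate 1 and 50 ppm replicate 2, and the ranges of both doses overlapped between 925 and 1116 CPM. The means were 982 ± 97.6 and 1039.8 ± 96.5 CPM (SD, n = 4), and the log2 fold change was 0.08 (standard error 0.08, 95% interval -0.09 to 0.25, or 0.942-fold to 1.19-fold). It was 0.032 with 50 ppm replicate 2 left out and 0.15 with 0 ppm replicate 1 left out.

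*Hsp90aa1* (ENSMUSG00000021270, chromosome 12, 110690605 to 110702728) encodes the alpha isoform of cytosolic Hsp90, the more stress-responsive one, which matures kinases and steroid receptors. It was counted at 711, 705, 823 and 743 CPM in the controls and at 698, 769, 761 and 796 CPM in the exposed brains. The highest and the lowest brain belonged to different doses, 0 ppm replicate 3 and 50 ppm replicate 1. The means were 745.5 ± 54.1 and 756 ± 41.7 CPM (SD, n = 4), and the log2 fold change was 0.02 (standard error 0.07, 95% interval -0.12 to 0.16, or 0.918-fold to 1.12-fold). The sign was negative without 0 ppm replicate 1 (-0.0020), without 0 ppm replicate 2 (-0.0057) and without 50 ppm replicate 4 (-0.0058). *Hsp90ab1*, the constitutive beta isoform, was at 2297 ± 70.8 and 2301 ± 67.0 CPM (SD, n = 4). Per kb of exon *Hsp90ab1* was 4.05 ± 0.285 times as abundant as *Hsp90aa1* at 0 ppm and 3.998 ± 0.239 times at 50 ppm (SD, n = 4; exact two-sided permutation test, p = 0.771).

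The mitochondrial chaperonin is made of Hsp60, encoded by *Hspd1* (ENSMUSG00000025980, chromosome 1, 55077835 to 55088243), and of the lid protein Hsp10, encoded by *Hspe1* (ENSMUSG00000073676, chromosome 1, 55088132 to 55091307). Both genes start in the same short region and run in opposite directions. *Hspd1* was counted at 232, 228, 230.4 and 222 CPM at 0 ppm and at 226, 229, 229 and 241 CPM at 50 ppm. These values lay within a narrow band, the lowest in 0 ppm replicate 4 and the highest in 50 ppm replicate 4. The log2 fold change of *Hspd1* was 0.02 (standard error 0.06, 95% interval -0.11 to 0.15, or 0.928-fold to 1.11-fold), the narrowest interval of the 10 genes, and without 50 ppm replicate 4 it was -0.0012.

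*Hspe1* was counted at 31.9, 32.7, 36.1 and 31.4 CPM in the controls and at 31.4, 31.7, 28.2 and 32.6 CPM in the exposed brains. The highest value was in 0 ppm replicate 3 and the lowest in 50 ppm replicate 3, and between them the doses were mixed. The means were 33.0 ± 2.11 and 30.98 ± 1.90 CPM (SD, n = 4), and the log2 fold change was -0.09 (standard error 0.08, 95% interval -0.27 to 0.08). It was -0.047 without 0 ppm replicate 3 and -0.044 without 50 ppm replicate 3. The ratio of *Hspd1* to *Hspe1*, per kb of exon, was 4.06, 3.90, 3.56 and 3.93 in the controls and 4.02, 4.03, 4.52 and 4.13 in the exposed brains. Only 0 ppm replicate 1 among the controls reached the range of the exposed brains, and the ratio of 3.86 ± 0.211 at 0 ppm and 4.17 ± 0.235 at 50 ppm (SD, n = 4) did not pass the exact two-sided permutation test (p = 0.0857). The size of this ratio depends on the length used, and per kb of the longest coding transcript, an alternative chosen after seeing the data, it was 2.21 ± 0.121 and 2.39 ± 0.134 (SD, n = 4), with the same p. The levels of *Hspd1* and *Hspe1* across the 8 brains gave r = 0.234 (exact permutation p = 0.513, adjusted p = 0.513 over 2 relations) and rho = 0.5 (exact permutation p = 0.216, adjusted p = 0.216), and r = 0.344 without the 2 brains farthest from the median of *Hspd1*.

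**Figure D2:**
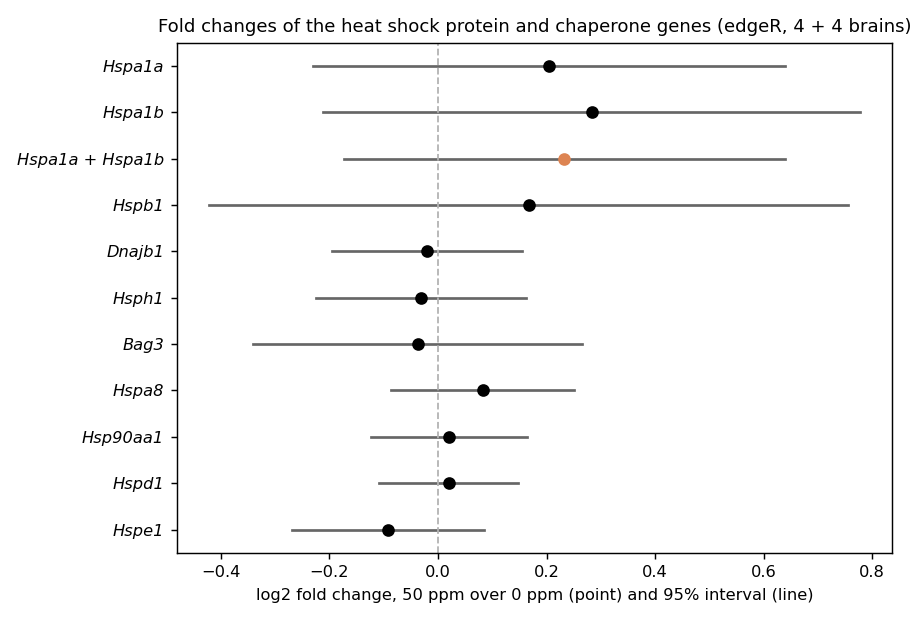
Log2 fold change of each gene at 50 ppm over 0 ppm (points) with its 95% interval (lines) from edgeR, and of the summed *Hspa1a* and *Hspa1b* counts (orange point). Every interval includes 0, and they are narrowest for *Hspd1* (-0.11 to 0.15) and widest for *Hspb1* (-0.42 to 0.76).

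Levels of different genes were set side by side as CPM per kb of all annotated exons of a gene. This scale adjusts for length but not for reads shared with near-identical copies. Of stretches of 115 bases, 60.0% of the *Hspa8* transcript occurred in another gene, against 0% for *Hsph1*, *Dnajb1* and *Bag3*. The order and the ratios below are uncertain to that extent. On this scale the order was *Hspa8* (235), *Hsp90aa1* (191), *Hspd1* (86.9), *Hsph1* (23.2), *Hspe1* (21.7), *Dnajb1* (18.0), *Bag3* (2.11), *Hspa1a* (1.39), *Hspb1* (1.14) and *Hspa1b* (0.872). The ranges over the 8 brains of *Hspa8* (208 to 266) and *Hsp90aa1* (177 to 209) touched, while *Hspd1* (83.9 to 91.3) lay apart from its neighbours on either side. *Hsph1*, *Hspe1* and *Dnajb1* overlapped each with the next. Between *Dnajb1* (16.0 to 20.6) and *Bag3* (1.81 to 2.45) the ranges lay apart, and from *Bag3* through *Hspa1a* and *Hspb1* to *Hspa1b* each overlapped with the next. Per kb of the longest coding transcript the order was the same, but *Hspa8* (374 to 479) lay apart from *Hsp90aa1* (213 to 251), and *Hspe1* (36.5 to 46.6) from *Dnajb1* (17.1 to 22.0). The means of *Hspa8* (422), *Hsph1* (44.3) and *Hspe1* (41.3) were the ones that moved by over 1.5 times. The basal *Hspa8* was 116 ± 37.2 times as abundant per kb as *Hspa1a* and *Hspa1b* together at 0 ppm and 103 ± 18.7 times at 50 ppm (SD, n = 4; exact two-sided permutation test, p = 0.657). Per kb of the longest coding transcript these ratios were 208 ± 66.8 and 184 ± 33.5 (SD, n = 4). In single brains the ratio per kb of exon was 169.7, 106, 84.6 and 103 in the controls and 117, 77.1, 116 and 99.9 in the exposed brains. The highest ratio was in 0 ppm replicate 1 and the lowest in 50 ppm replicate 2, the brains with the lowest and the highest *Hspa1a* and *Hspa1b* level. The 10 genes together made up 2360, 2085, 2331 and 2144 CPM in the controls and 2265, 2439, 2251 and 2228 CPM in the exposed brains, with overlapping doses.

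The genes also differed in how much they varied between brains of the same dose, measured as the biological coefficient of variation that edgeR fits to each gene. The fit draws each value towards those of genes of similar level. With 4 brains per dose the ranks below are uncertain. *Hspd1* had a value of 0.0695, the 14th lowest of the 23113 genes. Because variation depends on level, it was also ranked among the 2580 genes with a mean of at least 100 CPM, of which 0.504% had a lower value than *Hspd1*. In the same set 44.5% of genes were lower than *Hsp90aa1* (0.0784), 78.2% were lower than *Hspa8* (0.0894) and 89.5% were lower than *Hsph1* (0.0983). Of these 4 genes, the mitochondrial *Hspd1* varied least and *Hsph1* most. At lower counts the values were 0.0871 (*Hspe1*), 0.0879 (*Dnajb1*), 0.131 (*Bag3*), 0.195 (*Hspa1a*), 0.213 (*Hspa1b*) and 0.226 (*Hspb1*). From the lowest to the highest brain *Hspd1* spanned 1.09-fold, *Hsph1* 1.40-fold and *Hspa1b* 2.46-fold.

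**Figure D3:**
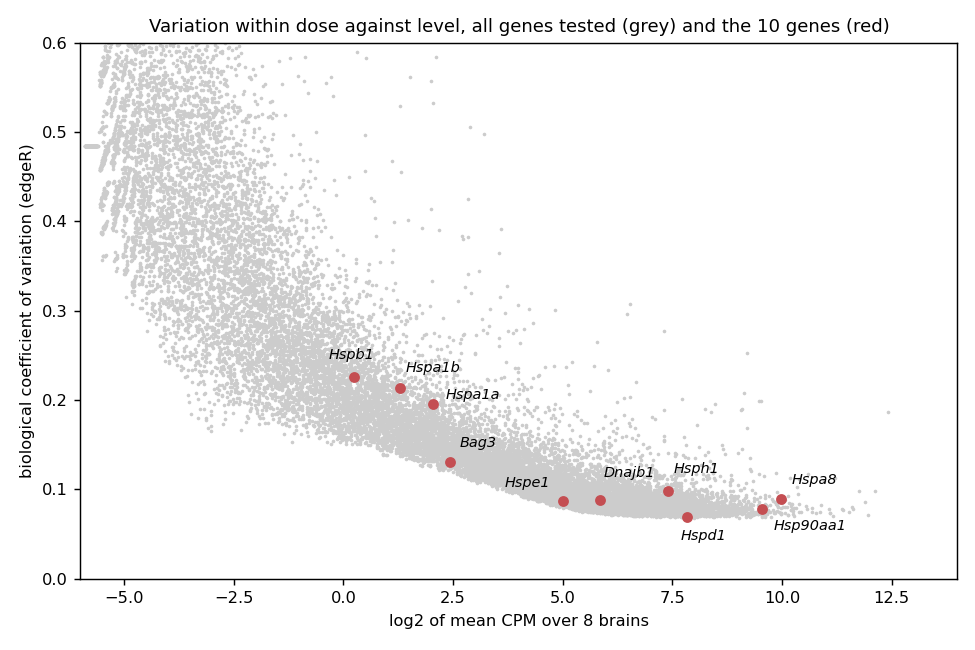
Biological coefficient of variation within dose (vertical axis) against the log2 of the mean CPM over the 8 brains (horizontal axis) for all genes tested (grey) and the 10 genes (red), with genes of higher variation beyond the upper edge of the axis. *Hspd1* (0.0695) lies on the lower edge of the grey points and *Hsph1* (0.0983) above most genes of its level.

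How far the other 8 genes followed the inducible Hsp70 genes from brain to brain was examined with the log2 CPM (prior count 2) of *Hspa1a* and *Hspa1b* summed. None of the 8 relations passed after Benjamini-Hochberg adjustment. *Hspb1* was the closest, with r = 0.693 (exact permutation p = 0.0525, adjusted p = 0.420 over 8 relations) and rho = 0.690 (exact permutation p = 0.0694, adjusted p = 0.555). Its r was 0.601 without the 2 brains farthest from the median of the sum, 50 ppm replicate 2 and 0 ppm replicate 1, and 0.657 after centring within dose (exact permutation p = 0.0824). *Hsp90aa1* had r = 0.564 (exact permutation p = 0.140, adjusted p = 0.559) and rho = 0.5 (exact permutation p = 0.216, adjusted p = 0.865), and r = 0.682 without those 2 brains. Among 14600 genes with a mean of at least 1 CPM, *Hspb1* ranked 571 and *Hsp90aa1* 1482 by r.

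*Hsph1* had r = 0.115 (exact permutation p = 0.787, adjusted p = 0.907) and rho = 0.286 (exact permutation p = 0.501, adjusted p = 0.977), values that depended on single brains. In 0 ppm replicate 1 *Hsph1* was at its highest and the *Hspa1a* and *Hspa1b* sum at its lowest. Without that brain r was 0.934 (exact permutation p = 0.00119, adjusted p = 0.00952 over 8 relations), without 50 ppm replicate 2 it was -0.312, and without both, the 2 brains farthest from the median, it was 0.901. Which of these describes the relation cannot be decided from 8 brains. The adjustment covers the 8 relations but not the choice of the brain left out. The adjusted p without 0 ppm replicate 1 therefore does not show a relation. For *Bag3* the value also differed with the brains included, from r = -0.174 (exact permutation p = 0.695, adjusted p = 0.907; rho = 0.119, exact permutation p = 0.793, adjusted p = 0.977) to 0.846 without those 2 brains, 0.625 without 50 ppm replicate 2 alone and -0.580 without 0 ppm replicate 3. For *Hspe1* r was 0.295 (exact permutation p = 0.466, adjusted p = 0.907; rho = 0.0476, exact permutation p = 0.935, adjusted p = 0.977) and 0.765 without the 2 brains, 0.585 after centring within dose (exact permutation p = 0.130), 0.499 without 50 ppm replicate 2 and 0.0463 without 0 ppm replicate 3. *Hspa8* had r = 0.229 (exact permutation p = 0.593, adjusted p = 0.907; rho = 0.310, exact permutation p = 0.462, adjusted p = 0.977), 0.290 without the 2 brains, -0.349 without 50 ppm replicate 2 and 0.703 without 0 ppm replicate 1. For *Dnajb1* (r = 0.0567, exact permutation p = 0.901; rho = -0.190, exact permutation p = 0.665) and *Hspd1* (r = -0.0455, exact permutation p = 0.907; rho = 0.0238, exact permutation p = 0.977) r was near 0, with adjusted p of 0.907 for r and 0.977 for rho. Without the 2 brains their r was -0.366 and 0.169.

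**Figure D4:**
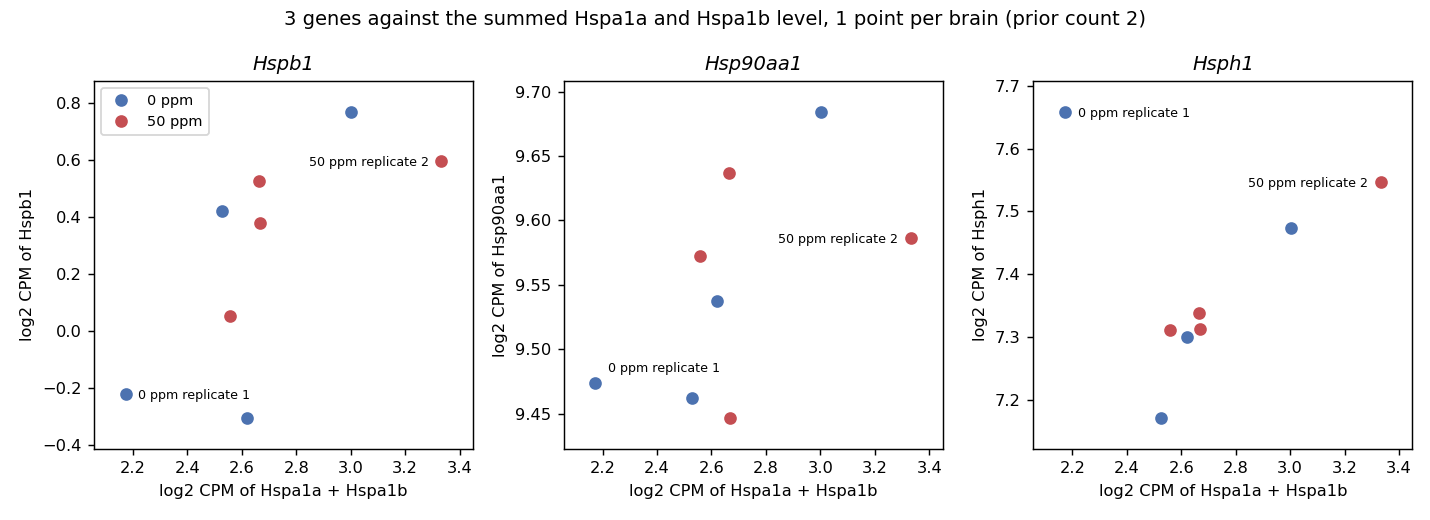
Log2 CPM of *Hspb1*, *Hsp90aa1* and *Hsph1* (vertical axes) against that of *Hspa1a* and *Hspa1b* summed (horizontal axes) in each brain at 0 ppm (blue) and 50 ppm (red). For *Hspb1* r was 0.693, which did not pass the exact permutation test (p = 0.0525, adjusted p = 0.420), and for *Hsph1* the brain 0 ppm replicate 1 lies apart from the others, with r = 0.115 over all 8 brains and 0.934 without it.

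Of the 14600 genes, the 10 whose log2 CPM was most like that of *Hspa1a* and *Hspa1b* over the 8 brains were *Nxph1* (r = 0.985), *Chchd10* (0.969), *Srrd* (0.957), *Got1* (0.953), *Rit1* (0.9498), *Ntan1* (0.947), *AI854703* (0.941), *Ppt1* (0.939), *Bcam* (0.936) and *Tyw5* (0.935). *Hspa1a* and *Hspa1b*, which make up the sum, were not ranked, and none of the other 8 heat shock protein and chaperone genes is among them. These r values are the highest of many and are given as a description. *Nxph1*, which encodes a secreted ligand of neurexins, ranged from 71.96 to 90.4 CPM, and *Got1*, a cytosolic aspartate aminotransferase, from 74.5 to 93.4 CPM.

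Other chaperone genes were read from the same fit by role. The lists also hold genes that are not chaperones themselves, such as heat shock factors and the protease gene *Clpp*, and these are counted with them. Of 87 listed genes 86 were tested, and *Hspb9*, with at most 2 counts in a brain, was not. With edgeR, 0 of the 86 had an adjusted p under 0.05 and 0 an unadjusted p under 0.05, and DESeq2 and limma-voom also called 0 at the adjusted threshold. The log2 fold change was positive for 40 and negative for 46, with a median of -0.0046, and over the 80 genes with a mean of at least 1 CPM it was -0.0053. Among those 80 the values ranged from -0.27 for *Hspb3* to 0.23 for *Hspb8*, both small heat shock proteins. *Dnajb11*, a cochaperone of the endoplasmic reticulum chosen here after its values were seen, was the 1 gene of the 86 whose doses did not overlap (2.09% of all genes). It was at 59.5 ± 2.48 CPM at 0 ppm and 65.2 ± 5.65 CPM at 50 ppm (SD, n = 4), and the log2 fold change was 0.13 (standard error 0.08, 95% interval -0.03 to 0.29).

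Among the further genes of the Hsp70 family, 7 of 11 had a positive log2 fold change, none of which passed, and such genes are called higher here for the other roles too. The most abundant of these per kb was *Hspa5*, the Hsp70 of the endoplasmic reticulum, with 327 ± 55.2 and 358.5 ± 56.5 CPM (SD, n = 4), and its log2 fold change was 0.13 (95% interval -0.11 to 0.37). The 3 further Hsp90 genes had log2 fold changes of 0.0023 to 0.17, with a median of 0.09. Among the further Hsp40 genes (11 of 18 higher) the most abundant was *Dnajc5*, the cysteine string protein of synaptic vesicles, with 560.2 ± 20.4 and 573 ± 39.5 CPM (SD, n = 4), and its log2 fold change was 0.03 (95% interval -0.11 to 0.17). Among the further small heat shock proteins (2 of 8 higher) it was *Hspb8*, a partner of *Bag3*, with 6.67 ± 1.41 and 7.82 ± 0.523 CPM (SD, n = 4), and its log2 fold change was 0.23 (95% interval -0.09 to 0.55). In the BAG family (2 of 5 higher) *Bag1* had a log2 fold change of 0.0011 (95% interval -0.14 to 0.15).

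The cochaperones of Hsp90 and Hsp70 were higher in 5 of 15 cases, with a median of -0.03. *Fkbp4*, an immunophilin of the steroid receptor complex and the most abundant of them per kb of exon, had a log2 fold change of -0.11 (95% interval -0.25 to 0.04). The subunits of the cytosolic chaperonin TRiC, which folds actin and tubulin, lay between -0.04 and 0.01 (2 of 8 higher), and *Cct2*, the most abundant subunit per kb of exon, was at 311 ± 11.2 and 306 ± 7.99 CPM (SD, n = 4). Those of prefoldin, which delivers actin and tubulin to TRiC, lay between -0.07 and 0.07 (2 of 6 higher), with *Pfdn5* most abundant per kb of exon (85.3 ± 6.99 and 87.2 ± 7.17 CPM, SD, n = 4). Among heat shock factors and their regulators (2 of 5 higher) *Hsbp1*, a protein that binds heat shock factor 1, was the most abundant and had a log2 fold change of -0.05 (95% interval -0.20 to 0.10). The collagen chaperone *Serpinh1* had 0.08 (95% interval -0.14 to 0.30), and the mitochondrial cochaperones were higher in 3 of 6 cases, with *Clpp*, a matrix protease, at -0.01 (95% interval -0.19 to 0.16).

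**Figure D5:**
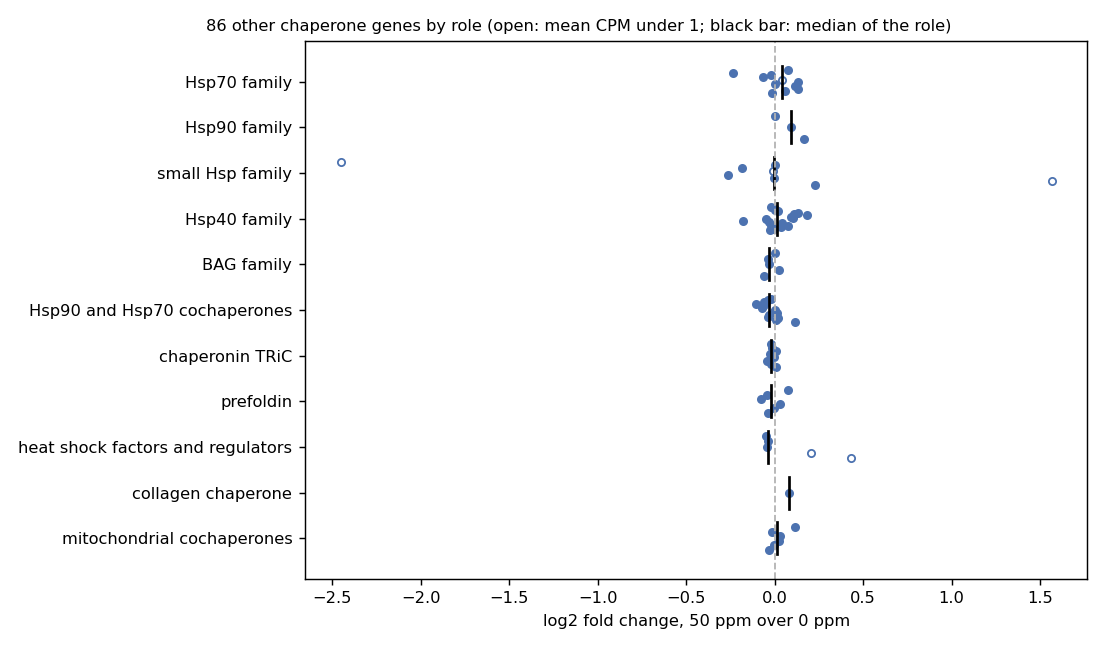
Log2 fold change at 50 ppm over 0 ppm (horizontal axis) of 86 other chaperone genes grouped by role, with filled points for genes with a mean of at least 1 CPM, open points for lower ones and a black bar at the median of each role. The open points far to either side are *Cryaa*, at 0 to 41 counts, and *Hspb7*, at 0 to 6 counts, and filled points lie between -0.27 and 0.23.

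Reads can be shared between some of the genes and near-identical copies, and their counts are uncertain to that extent. Of all stretches of 115 bases, the read length after the authors' trimming, 60.0% of the *Hspa8* transcript also occurred in another gene, as did 46.9% of *Hspa1b*, 45.7% of *Hspa1a*, 43.6% of *Hsp90aa1*, 39.8% of *Hspb1*, 23.7% of *Hspd1* and 18.6% of *Hspe1*. For *Hsph1*, *Dnajb1* and *Bag3* the share was 0%. The processed pseudogene *Gm15459* of *Hspa8* was itself given 1925 to 2724 counts per brain, 8.20% of the counts of *Hspa8*, with a log2 fold change of 0.10. For *Hspb1* the pseudogene *Hsp25-ps1* had 1 to 13 counts per brain, 25.4% of the counts of *Hspb1*. *Hspa1l*, an Hsp70 gene known from testis that lies beside *Hspa1a*, had 6 to 29 counts. Since the strand setting is not given, overlap with genes on the opposite strand also matters for *Hspa1a* (19.0% of exon length, *Gm20481*), *Hspe1* (7.6%, *Hspd1*) and *Hspd1* (4.2%, *Hspe1*), and 6.1% of the exon length of *Hspa8* lies in small nucleolar RNA genes on its own strand.

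Marker lists were read beside the 10 genes. Of the markers of spinal cord and caudal hindbrain 3 of 5 tested genes passed edgeR's test after Benjamini-Hochberg adjustment and 5 of 5 were higher at 50 ppm. All 5 belong to the *Hoxb* cluster, so they are not separate cases. The study also measured genes of this cluster by qRT-PCR and describes their expression in the brain as perturbed by maternal Cd. The number passing depended on the setting. It was 1 with limma-voom, 2 with DESeq2, with the robust fit, with at least 10 counts in 4 libraries and without 0 ppm replicate 1 or 2 or 50 ppm replicate 1 or 4, 3 with DESeq2 size factors and with any 1 of the other brains left out, and 4 with no filter. Their summed level was 0.0, 0.112, 6.11 and 15.7 CPM in the controls and 74.1, 22.6, 15.4 and 24.1 CPM in the exposed brains, *Hoxb5* was the most abundant, and *Hoxc6* and *Hoxc8* were at 0 in all brains. Of the markers of endothelium and mural cells 9 of 9 had a positive log2 fold change and 0 passed, and their sum was 370.0, 286, 352 and 320.4 CPM in the controls and 341, 348, 410.2 and 409.6 CPM in the exposed brains, with *Rgs5*, a pericyte gene, most abundant and no marker at 0. No difference in the 10 genes passed beside them, and their part in the values above was not tested. With 0 genes passing edgeR's test in each, the sums at 0 ppm and 50 ppm were 4338 ± 230.2 and 4260.0 ± 119 CPM for neurons, 1339.8 ± 214 and 1484 ± 71.4 CPM for radial glia and astrocytes (*Fabp7* most abundant), and 347 ± 14.2 and 389.9 ± 41.8 CPM for the oligodendrocyte lineage (*Pdgfra*). They were 238 ± 77.9 and 215 ± 132 CPM for blood (*Hbb-bs*), 8.22 ± 0.630 and 8.37 ± 0.945 CPM for skeletal muscle (*Acta1*), and 338 ± 50.3 and 367 ± 30.4 CPM for meninges (*Col1a2*). For choroid plexus and ependyma they were 683 ± 342 and 584 ± 181 CPM, and for liver 635 ± 332 and 538.5 ± 173 CPM, both led by *Ttr*, which the lists share (SD, n = 4 throughout). The higher control mean of both lists rested on 0 ppm replicate 2, at 1192 and 1129 CPM, since the other 3 controls were at 462 to 576 and 419 to 531 CPM. Immediate early genes, which respond to handling and activity, summed to 61.0 ± 6.08 and 60.3 ± 6.81 CPM (*Dusp1* most abundant), and metal response genes to 146 ± 15.0 and 150.4 ± 11.3 CPM (*Slc30a1* most abundant), with 0 genes of either list passing. At an unadjusted p under 0.05 edgeR gave 2 of 6 genes for radial glia and astrocytes (5 of 6 higher) and 2 of 7 for the oligodendrocyte lineage (5 of 7 higher), against 3.75% of all genes, 1 of 9 for endothelium and mural cells, 1 of 6 for metal response (3 of 6 higher), and 0 for the remaining lists other than spinal cord and caudal hindbrain, where it gave 5.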

How the data were processed

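RNA-seq libraries of 8 newborn whole brains were compared, 4 at 0 ppm and 4 at 50 ppm maternal Cd. The authors deposited unnormalized read counts per gene in 2 tables, for alignments to the C57BL/6J (GRCm38) and the CAST/EiJ genome. They had removed the initial 10 bases of each read, aligned with STAR and counted with HTSeq, whose versions are not given in the sources used here. Genes at 0 in over 2/3 of the libraries were not tested, as in the study's methods.

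Counts of the C57BL/6J alignment were normalized by TMM and tested with edgeR 4.0.16 in R 4.3.3 (quasi-likelihood, dose as the only term), with Benjamini-Hochberg adjustment over all genes tested and a threshold of 0.05. Standard errors are the absolute log2 fold change divided by the square root of F, and 95% intervals use the total degrees of freedom of the fit. Log2 CPM for correlations used a prior count of 2. Permutation tests were exact and two-sided. In all 12 pairs of libraries of the same dose, counts differed by more than sampling noise (chi-square per degree of freedom 8.67 to 21.1). By rule, named genes are the 10 members, other chaperone genes with an unadjusted p under 0.05 (0 genes), the most abundant gene per kb of exon in each chaperone role, the 10 genes most like the *Hspa1a* and *Hspa1b* sum, and the most abundant gene of each marker list. Other genes were named after their values were seen: *Dnajb11*, *Hspb3*, *Hspb7*, *Hspb9*, *Cryaa*, *Tubb3*, *Hoxc6*, *Hoxc8*, *Hspa1l*, *Gm20481* and the pseudogenes. The members and lists were chosen with earlier results of these data known.

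Alternatives were DESeq2 1.42.0, its size factors in edgeR, no filter, at least 10 counts in 4 libraries, the robust fit, limma-voom (limma 3.58.1) with quality weights, the CAST/EiJ table, each library left out, and *Hspa1a* and *Hspa1b* fitted apart. For correlations they were Spearman's rho, centring within dose, DESeq2 size factors, a prior count of 0.5, and leaving out each library or the 2 farthest from the median. Chosen after seeing the data were levels per kb of the longest coding transcript in place of all exons, and the count of spinal cord and caudal hindbrain markers under each setting. Gene positions are those of GRCm38, and upstream sequences are those of RefSeq for that build. Python 3.11.15 was used for summaries and matplotlib 3.10.9 for plots.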

Additional observations from a re-analysis of the deposited data

Results flagged for a closer look

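In 6 of 78 groups of 4 brains examined, 1 brain lay far from the other 3 relative to the range of its group. Chance alone marks about 1 in 20 such groups. Both values among the heat shock genes came from 50 ppm replicate 2, in which *Hsph1* was at 187 CPM (158.8 to 161.8 CPM in the other exposed brains) and *Hspa1a* and *Hspa1b* summed to 10.01 CPM (5.82 to 6.28 CPM). In 0 ppm replicate 2 the markers of choroid plexus and ependyma summed to 1192 CPM (462 to 576 CPM in the other controls) and those of liver, which share *Ttr* with them, to 1129 CPM (419 to 531 CPM). The markers of spinal cord and caudal hindbrain summed to 74.1 CPM in 50 ppm replicate 1 (15.4 to 24.1 CPM in the other exposed brains). The total count of 50 ppm replicate 4 was 22916434, against 27943397 to 28344410 in the other exposed libraries.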

How the results depend on the processing

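Of 358 alternative values 317 kept their direction and their side of the threshold or stayed within the spread, 22 turned direction and 19 moved otherwise. The count of heat shock protein and chaperone genes called was 0 under all 14 alternatives run for them, as was that of the other chaperone genes. The number of all genes called moved from 4 to 18 with DESeq2, 52 without the filter, 2 with at least 10 counts in 4 libraries, 1 with limma-voom, 2 in the CAST/EiJ table and 2 to 20 with a library left out. With a library left out, log2 fold changes ranged from -0.0026 to 0.40 for *Hspa1b*, -0.10 to 0.060 for *Hsph1*, -0.057 to 0.045 for *Dnajb1*, -0.0058 to 0.071 for *Hsp90aa1*, -0.0012 to 0.033 for *Hspd1* and -0.086 to 0.035 for *Bag3*, and with limma-voom *Dnajb1* was at 0.017. The number of the 10 genes higher at 50 ppm ranged from 4 to 7 and their median from -0.0035 to 0.053. Correlations with the *Hspa1a* and *Hspa1b* sum ranged from -0.312 to 0.934 for *Hsph1*, -0.209 to 0.275 for *Dnajb1*, -0.349 to 0.703 for *Hspa8*, -0.118 to 0.0709 for *Hspd1*, 0.0463 to 0.499 for *Hspe1* and -0.580 to 0.625 for *Bag3* with a library left out. They turned to -0.190 (Spearman) and -0.366 (without the 2 farthest libraries) for *Dnajb1*, 0.0238 and 0.169 for *Hspd1*, and 0.119 and 0.846 for *Bag3*. Apart from the smaller number of libraries or genes in some fits, the cause was not tested. No paired analysis was possible because the replicate numbers are in accession order only. The 10 genes were not analysed in the CAST/EiJ table, since its identifiers could not be paired with them here.

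With 4 brains per dose, the 95% intervals of the 6 most abundant of the genes lay within 0.8295-fold to 1.19-fold, and those of *Hspa1a*, *Hspa1b* and *Hspb1*, at 19 to 168 reads per brain, are wider. Counts of genes with near-identical copies are uncertain.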

Other observations

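Further copies of the heat shock genes were counted under their own names. *Gm8355*, a pseudogene of *Hspa8*, had 163 to 247 counts per brain, 0.767% of the counts of *Hspa8*, and *Gm5844*, a pseudogene of *Hsp90aa1*, had 106 to 184, 0.642% of those of *Hsp90aa1*. *Hspd1-ps3* had 9 to 15 counts per brain, and *Gm12346*, another pseudogene of *Hsp90aa1*, had 0 in every brain.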
